A study of Homo sapiens with 13 samples.

Results

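Regulator of G protein signalling (RGS) genes were examined in CCRF-CEM, a human T cell acute lymphoblastic leukemia (T-ALL) line, for which 13 one-colour Agilent arrays were available. The RGS set held 8 genes, namely RGS1, RGS2, RGS3, RGS10, RGS12, RGS14, RGS16 and RGS19, out of 25940 gene names on the array. Every probe carrying the name of a member was taken, which gave 11 probes. RGS1 had been picked because its signal rose under FK866 in parental cells, and the other 7 genes as relatives of it that lymphoid cells use. Parental cells (CEM PA) were measured after mock treatment on 3 arrays and after 5 nM FK866 for 48 h on 2 arrays. FK866 inhibits NAMPT, the enzyme that salvages nicotinamide for NAD synthesis. The resistant derivative (CEM RES) had been selected by stepwise increases of FK866 and was kept, per the study's methods, in medium with 100 nM of the drug. It was measured after mock treatment and after 5 nM FK866 for 48 h on 4 arrays each, so the mock-treated CEM RES cells were not naive to FK866. The resistant cells came from a single selected subline, and the labels describe the arrays of a group as biological replicates.

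RGS proteins switch off signals from G protein-coupled receptors. They bind the active, GTP-loaded alpha subunit of a heterotrimeric G protein and speed up the hydrolysis of its GTP, after which the alpha subunit returns to the beta-gamma pair and signalling stops. In lymphocytes these receptors include those for chemokines, sphingosine-1-phosphate and other lipids, and RGS1 is known for restraining migration towards chemokines. By sequence the members fall into the R4 subfamily (RGS1, RGS2, RGS3 and RGS16), the R12 subfamily (RGS10, RGS12 and RGS14) and the RZ subfamily (RGS19). Most R4 proteins are small, with little beyond the RGS domain.

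RGS1 and RGS2 lie close together. In the RefSeq annotation of GRCh38.p14, RGS1 occupies chr1:192575773-192580024 and RGS2 begins 229.0 kb further along the same chromosome. RGS13 lies 56.1 kb from RGS1, between both genes. RGS21 and RGS18 lie on the other side at 208.5 kb and 390.0 kb, and RGS16 is on the same chromosome 9971.4 kb away. Of these chromosome 1 genes RGS1 was chosen for its rise under FK866, while no change of RGS2 or RGS16 passed the test. To set them side by side, the 250 bases before the start site of RGS1, RGS2 and RGS16 are shown here, from RefSeq promoter sequences of GRCh38.p14. They are written 5′ to 3′ on the strand of the gene, with matches to the TATA box letters TATAAA or the CCAAT box letters CCAAT in capitals on either strand. The windows are chr1:192575523-192575772 on the plus strand for RGS1, chr1:192808789-192809038 on the plus strand for RGS2 and chr1:182604390-182604639 on the minus strand for RGS16.
RGS1: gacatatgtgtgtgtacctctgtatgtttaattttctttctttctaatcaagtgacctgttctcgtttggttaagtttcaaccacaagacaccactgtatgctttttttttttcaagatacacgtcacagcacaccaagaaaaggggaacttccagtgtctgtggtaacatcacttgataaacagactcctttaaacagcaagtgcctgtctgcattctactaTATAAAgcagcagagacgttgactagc
RGS2: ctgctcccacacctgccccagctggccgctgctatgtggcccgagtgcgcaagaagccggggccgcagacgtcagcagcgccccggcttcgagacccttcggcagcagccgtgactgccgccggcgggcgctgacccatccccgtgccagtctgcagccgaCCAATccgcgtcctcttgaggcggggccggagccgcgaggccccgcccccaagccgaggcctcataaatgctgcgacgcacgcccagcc
RGS16: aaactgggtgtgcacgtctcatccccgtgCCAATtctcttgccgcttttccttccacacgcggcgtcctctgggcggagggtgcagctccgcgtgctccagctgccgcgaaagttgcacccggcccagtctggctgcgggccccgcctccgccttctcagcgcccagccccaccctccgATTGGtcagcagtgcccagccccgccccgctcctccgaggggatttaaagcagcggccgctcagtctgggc
The RGS1 window ended in a TATAAA match that began 27 bases before the start site, and it held no CCAAT. RGS2 had 1 CCAAT match and RGS16 had 2, and neither held TATAAA. Only these exact letters were searched. Near matches close to the start site, such as CATAAA in the RGS2 window and TTTAAA in the RGS16 window, were not counted. Of 35116 RefSeq promoter windows of this length, 3763 held TATAAA and 32% held CCAAT on either strand. RGS1 was also poor in G and C, at 39.2% of its bases, and 11.4% of all windows had a lower share. The share was 72.8% for RGS2 and 68.4% for RGS16. Promoters were found for all 8 genes, 18 windows in all. These traits were not confined to RGS1. An RGS3 window with 56.8% G and C also held TATAAA, and another RGS3 window had 42.8%. RGS12 and RGS10 each had a window at 44% and 46%, while the highest share was 80.4% in RGS19. None of the 18 windows held TGACTCA (AP-1), TGACGTCA (CRE) or TGATGNAA (C/EBP-ATF), letters found in 4.2%, 1.65% and 3.14% of all windows. A match is a description of the letters and not a tested binding site.

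The signal of each spot was put on the log2 scale and quantile normalized over the 13 arrays, so that 1 unit is a doubling of the array signal. Each probe has its own brightness, and levels are therefore compared between groups and never between probes. Between 26457 and 33239 of the 43118 spots of an array were well above background and 0 were saturated. All 11 T-lineage markers on the array, among them CD3D, CD7 and LCK, were well above background on all 13 arrays. Among the markers of other lineages CD79A, CD79B and CD14 also were, while CD33 and MPO were on 1 array each and KLRD1 on 0. CD79B had a mean log2 signal of 6.72 in mock-treated CEM PA and 5.56 in mock-treated CEM RES, and its part in the results was not tested. CEM PA was scanned in sessions 1 and 2 and CEM RES in session 3, so the line and the scan session cannot be told apart. Of the 11 member probes, 10 passed the filter on dim probes and were tested among 22751 probes. The exception was a second RGS3 probe, which was not well above background on any CEM RES array.

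**Figure D1:**
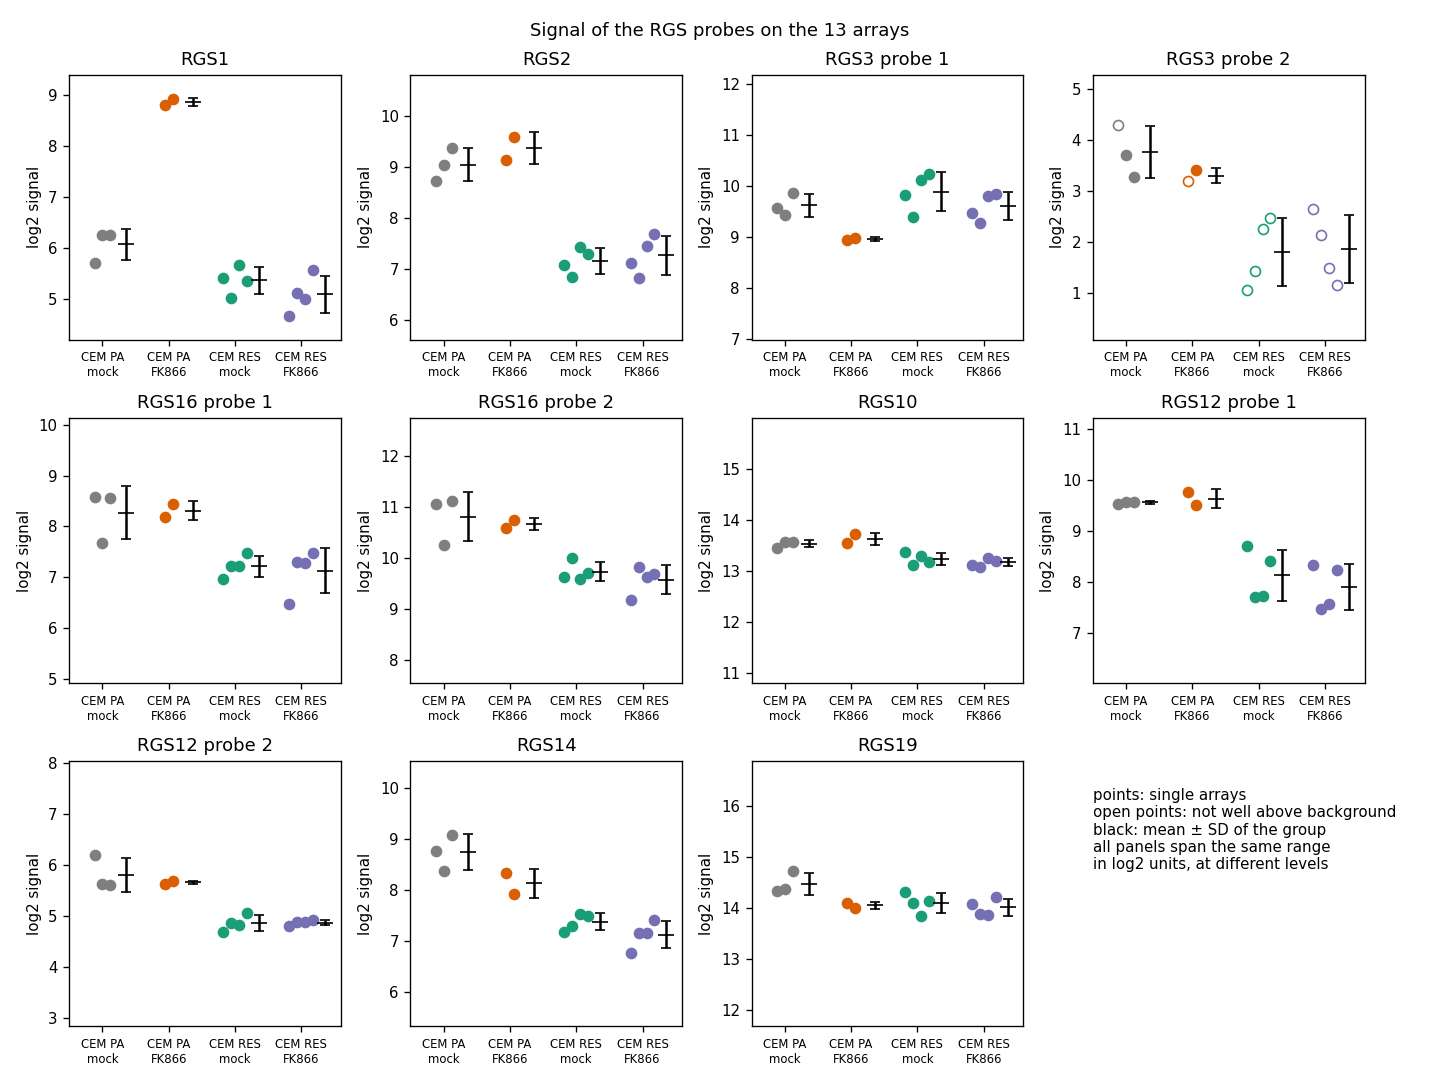
Log2 quantile-normalized signal of the 11 RGS probes on each array, with 3, 2, 4 and 4 arrays from left to right in each panel and the mean ± SD of each group in black. The RGS1 panel shows both FK866-treated CEM PA arrays at 8.82 and 8.93, above all other 11 arrays, while RGS2, RGS12, RGS14 and RGS16 separate CEM RES from CEM PA.

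RGS1 was measured by a single probe (A_23_P97141), at chr1:192548857-192548916 in the hg19 build used by the array design. Its log2 signal was 5.72, 6.26 and 6.26 on the mock-treated CEM PA arrays and 8.82 and 8.93 on the FK866-treated CEM PA arrays. In CEM RES it was 5.42, 5.04, 5.68 and 5.35 after mock and 4.68, 5.12, 5.01 and 5.57 after FK866. The FK866-treated CEM PA arrays thus stood above all others, mock-treated CEM PA came next, and both CEM RES groups were lowest and overlapped each other. The group means ± SD were 6.08 ± 0.31 (n = 3) and 8.88 ± 0.08 (n = 2) in CEM PA, and 5.37 ± 0.26 and 5.10 ± 0.37 (n = 4 each) in CEM RES. Within CEM PA the log2 fold change of FK866 over mock was 2.80 (SE 0.27), a 6.96-fold higher signal, and it is given without a test because the gene was chosen for it. In bulk RNA, more cells expressing RGS1 and more RGS1 RNA per cell cannot be told apart. The difference was 3.11 within the first scan session (1 array against 1) and 2.67 within the second (1 against 2).

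In CEM RES no rise of RGS1 was measured after the same exposure. The log2 fold change there was -0.28 (SE 0.21), with a limma adjusted p of 0.966 and a 95% confidence interval from -0.73 to 0.17. On the slide numbered 5 the difference was -0.67 and on slide 6 it was 0.12, each from 2 arrays against 2. The response in CEM RES minus that in CEM PA was -3.08 (SE 0.34), again a description. Without the drug the RGS1 signal was -0.70 (SE 0.22) in CEM RES relative to CEM PA on the log2 scale, and -0.39 after 75th-percentile scaling. Since the mock-treated CEM PA arrays were among those by which RGS1 was chosen, this too is a description.

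The question whether its relatives shared this rise was answered probe by probe. None of the 9 probes of the other 7 genes rose or fell under FK866 in CEM PA by the study's double threshold, an unadjusted p under 0.05 with an absolute log2 fold change over 0.75. Across the array, 6.69% of the tested probes passed it, and 1.53% had an adjusted p under 0.05. The 9 changes lay between -0.66 and 0.32, and the highest upper bound of their 95% confidence intervals was 0.93. Their median was -0.15, beside -0.003 for all tested probes. The lowest of the 9 limma adjusted p values was 0.26. With arrays of equal replicate number paired in the fit, RGS3 probe 1, which was lower under FK866, had a limma adjusted p of 0.0699.

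**Figure D2:**
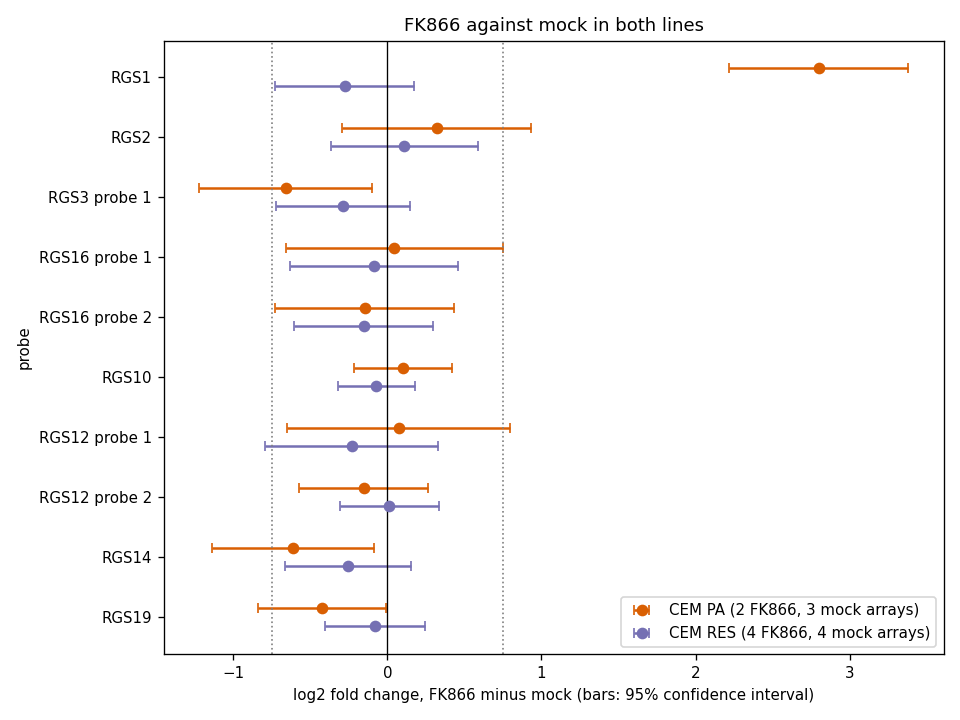
Log2 fold change of FK866 over mock for the 10 tested RGS probes, in CEM PA (orange) and CEM RES (violet), with 95% confidence intervals from limma and dotted lines at the study's limit of 0.75. RGS1 in CEM PA lies at 2.80, and the other 19 estimates lie between -0.66 and 0.32.

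Among the 8 genes, RGS2 lies nearest to RGS1 on chromosome 1. It acts mainly on Gq alpha subunits. Its probe (chr1:192781051-192781110, hg19) was printed in 10 spots per array, which were averaged. In CEM PA its log2 signal was 8.74, 9.05 and 9.38 after mock and 9.15 and 9.60 after FK866. These ranges overlapped, and the log2 fold change was 0.32 (SE 0.28, limma adjusted p 0.689, 95% confidence interval -0.29 to 0.93). The difference was 0.41 and 0.39 within the scan sessions. With arrays of equal replicate number paired in the fit, RGS2 was higher by 0.48 (limma p 0.0157, adjusted p 0.115). In that fit 5385 of all tested probes had a limma p under 0.05. In CEM RES the arrays gave 7.08, 6.84, 7.43 and 7.30 after mock and 7.11, 6.83, 7.45 and 7.70 after FK866, a log2 fold change of 0.11 (SE 0.22). All 8 CEM RES arrays were below all 5 CEM PA arrays. Between the mock-treated lines RGS2 was 3.71-fold lower in CEM RES, at a log2 fold change of -1.89 (SE 0.24, limma adjusted p 6.52e-05). Under FK866 it was 4.29-fold lower, at -2.10 (SE 0.27, limma adjusted p 0.000152).

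RGS16, an R4 member that T cells make after activation and that acts on Gi and Gq signalling, was read by 2 probes at chr1:182571118-182571177 and chr1:182567871-182567930 (hg19, minus strand). The first probe gave 8.58, 7.67 and 8.56 in mock-treated CEM PA, and 8.18 and 8.45 after FK866. The second gave 11.07, 10.26 and 11.12 after mock, and 10.59 and 10.75 after FK866. Both probes had their lowest CEM PA value on the same mock array, and for both the FK866 values fell inside the range of the mock values. Their log2 fold changes were 0.04 (SE 0.32) and -0.15 (SE 0.27), and both were negative within session 1 (-0.40 and -0.48) and positive within session 2 (0.33 and 0.06). No direction can therefore be given for RGS16 in CEM PA. In CEM RES the first probe lay between 6.48 and 7.48 and the second between 9.18 and 10.00 over both treatments. The probes were lower in mock-treated CEM RES than in mock-treated CEM PA by -1.05 (SE 0.27, limma adjusted p 0.00712) and -1.09 (SE 0.22, limma adjusted p 0.0019) on the log2 scale, and under FK866 by -1.18 and -1.09.

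RGS3 was the R4 member with the most negative estimate for FK866 in CEM PA. It exists as several isoforms and acts on Gi and Gq alpha subunits. The detected probe (chr9:116359708-116359767, hg19) gave 9.57, 9.44 and 9.87 on mock-treated and 8.95 and 8.99 on FK866-treated CEM PA arrays. The FK866 arrays were below all mock arrays, and the log2 fold change was -0.66 (SE 0.26, limma p 0.0252, adjusted p 0.26). It was -0.62 and -0.67 within the scan sessions. In CEM RES, RGS3 gave 9.84, 9.39, 10.12 and 10.23 after mock and 9.48, 9.29, 9.81 and 9.86 after FK866, with a log2 fold change of -0.29 (SE 0.20). RGS3 was the only member with a positive estimate between the lines, at 0.27 in mock (SE 0.22, limma adjusted p 0.324) and 0.64 under FK866 (SE 0.25, limma adjusted p 0.0586), and neither passed. The second RGS3 probe, whose ends lie at chr9:116291501-116299091 and which therefore spans an intron, was well above background on 2 of 3 mock-treated and 1 of 2 FK866-treated CEM PA arrays and on 0 of 8 CEM RES arrays. With so few arrays over background, no fold change is given for it.

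In the R12 subfamily, RGS14 and RGS12 carry Ras-binding domains and a GoLoco motif, which holds inactive Gi alpha subunits, besides the RGS domain. RGS14 (chr5:176798914-176798973, hg19) gave 8.77, 8.39 and 9.10 in mock-treated CEM PA and 8.34 and 7.94 after FK866. The groups did not overlap, and the log2 fold change was -0.61 (SE 0.24, limma p 0.0262, adjusted p 0.264), with -0.43 and -0.81 within the sessions. In CEM RES it gave 7.19, 7.30, 7.54 and 7.50 after mock and 6.77, 7.17, 7.17 and 7.41 after FK866, all below CEM PA. The line difference was a 2.58-fold lower signal in mock-treated CEM RES, at -1.37 (SE 0.20, limma adjusted p 0.000213). Under FK866 it was -1.01 (SE 0.23, limma adjusted p 0.00513).

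RGS12 was read by 2 probes at chr4:3433293-3433352 and chr4:3432200-3432259 (hg19). The first gave 9.53, 9.57 and 9.56 in mock-treated CEM PA and 9.76 and 9.50 after FK866. In CEM RES it gave 8.69, 7.69, 7.72 and 8.42 after mock and 8.34, 7.47, 7.56 and 8.23 after FK866. The mock-treated CEM PA arrays were nearly equal, whereas CEM RES replicates 1 and 4 were higher than replicates 2 and 3 under both treatments. The log2 fold change of FK866 was 0.08 (SE 0.33) in CEM PA and -0.23 (SE 0.26) in CEM RES. Between the mock-treated lines it was -1.42 (SE 0.28, limma adjusted p 0.00134). The second probe gave a line difference of -0.96 (SE 0.16, limma adjusted p 0.000507), which shrank to -0.64 after 75th-percentile scaling and to -0.44 after normexp background correction, under the limit in both.

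RGS10, a short protein of the same subfamily that is abundant in leukocytes, had probe values (chr10:121259523-121259582, hg19) from 13.45 to 13.71 over the 5 CEM PA arrays and from 13.08 to 13.36 over the 8 CEM RES arrays. The lines did not overlap, yet the difference was small, at -0.29 in mock (SE 0.12, limma adjusted p 0.0669) and -0.47 under FK866 (SE 0.14, limma adjusted p 0.021). Its response to FK866 in CEM PA was 0.10 (SE 0.15). RGS19, the RZ member, also known as GAIP from its interaction with Gi3 alpha, had a probe at chr20:62704534-62704593 (hg19). It gave 14.32, 14.37 and 14.72 in mock-treated CEM PA and at most 14.10 after FK866, without overlap. The log2 fold change was -0.42 (SE 0.19, limma p 0.0475, adjusted p 0.34). In CEM RES its values ran from 13.83 to 14.31, and the line difference was -0.38 in mock (SE 0.16, limma adjusted p 0.0698) and -0.04 under FK866.

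Set against RGS1, 3 of the 9 other probes (RGS3, RGS14 and RGS19) had FK866-treated CEM PA arrays below all mock arrays, and 0 had them above. Of all tested probes 17.8% were lower without overlap and 17% were higher. None of the 3 passed the double threshold. RGS14 passed it at -0.82 without FK866 replicate 1 of CEM PA, which leaves 1 treated array that is assumed to vary like the other groups, and without mock replicate 2 of CEM PA both RGS14 (-0.80) and RGS3 (-0.75) passed. In CEM RES 0 of the 10 probes passed, beside 1.3% of all probes, and no probe of the array had an adjusted p under 0.05. Without adjustment 0 of the 10 member probes and 1171 of all 22751 had a limma p under 0.05 there. With the replicate number as a block, RGS3 probe 1 (p 0.0191), RGS14 (p 0.0372) and RGS12 probe 1 (p 0.0465) were under it in limma, as were 2541 of all probes, with adjusted p values from 0.405 to 0.442. These 3 probes were lower under FK866 in 4 of 4 CEM RES pairs. The 10 changes ranged from -0.29 to 0.11. For the difference of the responses between the lines, the 9 probes other than RGS1 had adjusted p values of 0.617 and above with estimates from -0.31 to 0.37, and 0 passed the double threshold, beside 8.03% of all probes. An adjusted p under 0.05 was reached by 0.413% of all probes there.

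**Figure D3:**
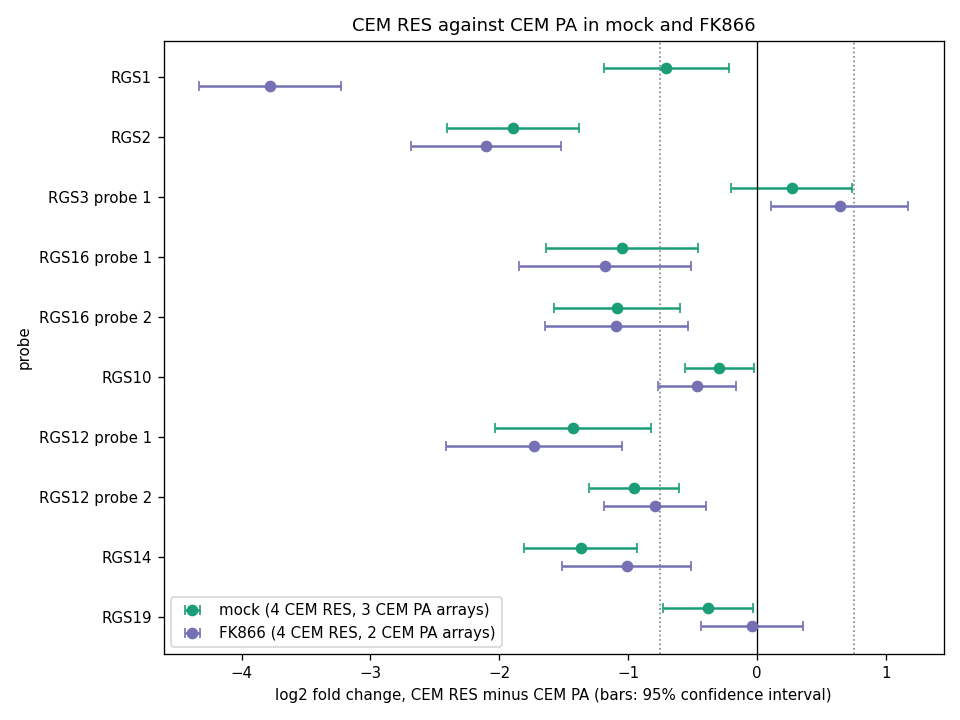
Log2 fold change of CEM RES over CEM PA for the 10 tested RGS probes after mock (green) and FK866 (violet), with 95% confidence intervals from limma and dotted lines at 0.75. RGS1 moves from -0.70 to -3.78 between mock and FK866, whereas RGS2 goes from -1.89 to -2.10 and RGS3 is the only gene to the right of zero.

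By the double threshold, 4 of the 8 genes differed between the mock-treated lines. In mock-treated cells 6 of the 9 probes other than RGS1, from RGS2, RGS12, RGS14 and RGS16, were lower in CEM RES by the double threshold and 0 were higher. Across the array 17.2% of probes were lower and 18.4% were higher. The median of the 9 probes was -1.05 and that of all tested probes 0.04. When arrays were instead scaled to their 75th percentile, the median of all probes became 0.17, and this left 5 of the 6 past the threshold, all but RGS12 probe 2. Without overlap, 8 of the 9 probes were lower, beside 23.2% of all probes. Under FK866, which uses the other arrays of each line, the same 6 probes were lower by the double threshold (15.5% of all probes were), and RGS1 was lower by -3.78 as a description. The line differences after mock and after FK866 share no arrays.

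A list of 13 further RGS genes on the array gave 5 with a detected probe, and RGS21 and RGS13, which flank RGS1, were not among them. The RGS13 probe was well above background on 0 of 13 arrays and the RGS21 probe on 2. None of the 5 passed the double threshold under FK866 in CEM PA, beside 6.69% of all tested probes. RGS18, a myeloid and megakaryocytic R4 member 390.0 kb from RGS1, had a log2 fold change of 0.11 (SE 0.26), and the range over the 5 genes was -0.41 for RGS11 to 0.25 for RGS4. All 5 were lower in mock-treated CEM RES by the double threshold, beside 17.2% of all tested probes. The differences were -3.03 for RGS9 (SE 0.44, limma adjusted p 0.000191), -1.95 for RGS11 (SE 0.23, limma adjusted p 3.89e-05), -1.16 for RGS5 (SE 0.35, limma adjusted p 0.0166), -0.93 for RGS18 (SE 0.22, limma adjusted p 0.00385) and -0.83 for RGS4 (SE 0.20, limma adjusted p 0.00512). RGS9 and RGS5 were well above background on 2 of the 4 mock-treated CEM RES arrays, so their differences rest in part on signal near background. RGS4 has a further probe, which was well above background on 0 arrays and gives no difference. In mock-treated CEM PA its mean log2 signal was 1.53, where the probe counted above had 15.95. Which of them reads RGS4 was not tested.

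The partners of RGS proteins were taken from gene lists by role. Of 30 detected lymphoid G protein-coupled receptors, 1 was higher and 6 were lower under FK866 in CEM PA by the double threshold, which 6.69% of all tested probes passed in either direction. The higher of them, S1PR1, the sphingosine-1-phosphate receptor that lets T cells leave lymphoid tissue, went from 7.17 to 8.46, a log2 fold change of 1.29 (SE 0.26, limma adjusted p 0.0333). The median of the list was -0.16. Of the 12 detected alpha subunits 1 was higher by the double threshold, of the 12 beta and gamma subunits 1 was lower, and of 16 effectors 0 passed. Of 12 detected other regulators of the G protein cycle 1 was higher and 1 lower. The higher of them was RASD1, a Ras-related protein that can activate Gi, at 2.69 (SE 0.52). Its change was known before the lists were made, so it is given as a description without a test.

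Between the mock-treated lines 3 alpha subunits were lower in CEM RES by the double threshold. They were GNAZ at -2.17 (SE 0.45, limma adjusted p 0.00182), GNA11 at -1.14 (SE 0.19, limma adjusted p 0.000519) and GNA15 at -0.92 (SE 0.24, limma adjusted p 0.00697). GNAZ encodes the Gz alpha subunit, the substrate for which the RZ subfamily is named, and GNA11 and GNA15 encode subunits of the Gq class, on which RGS2 acts. The beta and gamma subunits GNB1 (0.97, limma adjusted p 0.000486) and GNG5 (1.73, limma adjusted p 9.16e-05) were higher, and 0 of that list were lower. Receptors gave 4 higher and 8 lower of 30, and effectors 4 higher and 5 lower of 16, beside 18.4% higher and 17.2% lower among all probes. The lower effectors included PREX1, a Rac exchange factor driven by beta-gamma subunits, at -5.80 (SE 0.38). Its difference was known before the lists were made, so it too is a description. PIK3R5, the regulatory subunit of the beta-gamma-driven PI3K gamma, was also lower, at -1.55 (SE 0.13, limma adjusted p 3.78e-06). The higher effectors included PIK3CG, the catalytic subunit of the same kinase, at 1.17 (SE 0.36, limma adjusted p 0.0179). ITPR2, an inositol trisphosphate receptor, was higher by 1.77 (limma adjusted p 0.000416), and PLCB1, a phospholipase driven by Gq, by 1.08 (limma adjusted p 0.0182).

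**Figure D4:**
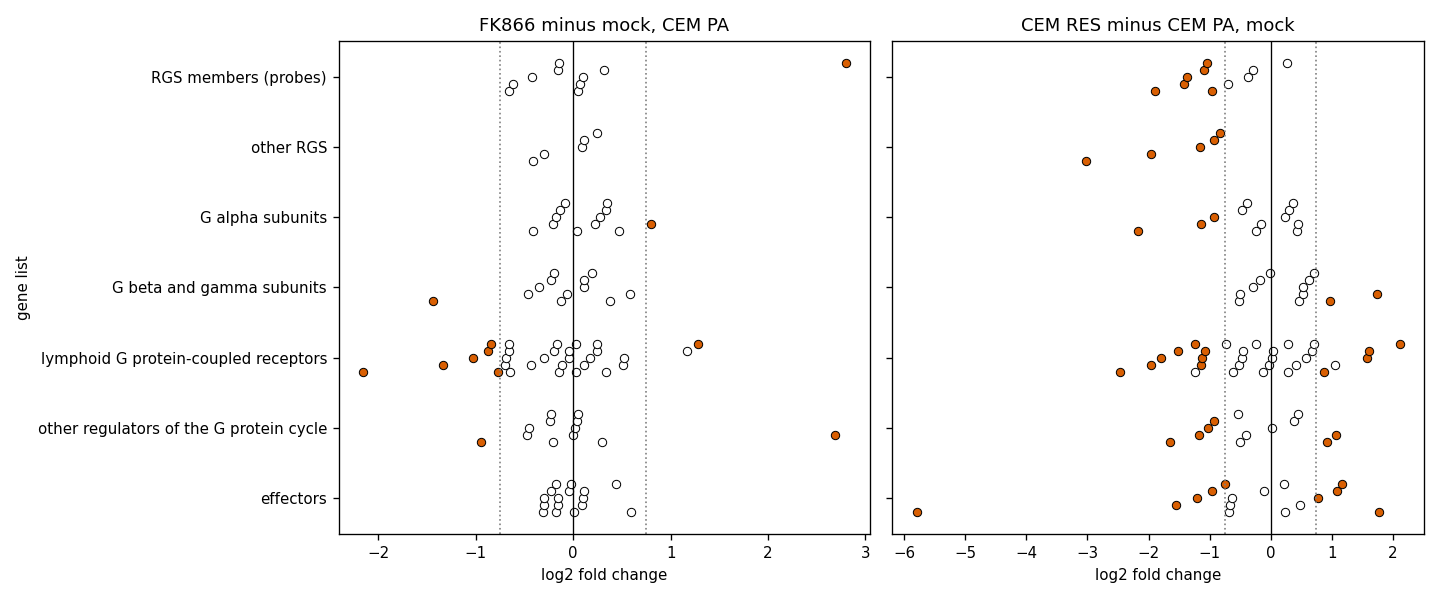
Log2 fold change of each detected gene of the G protein lists and of the 10 RGS member probes, for FK866 over mock in CEM PA (left) and CEM RES over CEM PA after mock (right), with filled points past the double threshold and dotted lines at 0.75. In the top row of the left panel the only filled point is RGS1, which was chosen for its rise. In the right panel 6 member probes and all 5 further RGS genes are filled on the lower side, beside 17.2% of all tested probes.

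The genes whose probe most resembled RGS1 over the 13 arrays were TAGAP (Pearson r 0.981), MRPL44 (0.971), ZNF584 (0.968), RAI1 (0.968) and CREB3L2 (0.967). These correlations describe 13 arrays that fall into 4 groups. TAGAP, a GTPase-activating protein of activated T cells, went from a mean of 5.94 to 9.33 in CEM PA and stayed at 4.83 and 4.70 in CEM RES. MRPL44, a mitochondrial ribosomal protein, went from 11.67 to 12.69. A further probe of the same gene could be set beside it for 4 of the 5. The second TAGAP probe had a log2 fold change of 0.69 in CEM PA where the first had 3.39, and the second CREB3L2 probe 0.02 where the first had 1.81. For ZNF584 the values were 2.26 and -0.04, and for RAI1 the probe named here had 2.73 and the other 3 had 0.44, 0.14 and -0.01. RGS1 has no further probe on the array, so the same comparison could not be made for it. Among the members, the correlation with RGS1 over the arrays was 0.809 for RGS10, 0.795 for RGS2 and -0.62 for the detected RGS3 probe, values that include the difference between the lines.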

How the data were processed

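For each of the 13 arrays the authors deposited the intensity of every spot (Agilent Feature Extraction, version 10.7.3.1 in the file headers and 10.7.7.1 in the submitters' processing notes), corrected for background within each array but without scaling from array to array. A quantile-normalized table of log2 values, also deposited, served as an alternative. Here control spots and outlier spots were left out, intensities were put on the log2 scale and quantile normalized, and spots of a probe were averaged. Kept were probes well above background on all arrays of some group, 22751 of 34127. The 4 groups were fitted in a single model with limma 3.58.1 in R 4.3.3 (two-sided moderated test, Benjamini-Hochberg adjustment over all kept probes). The double threshold was an unadjusted p under 0.05 and an absolute log2 fold change over 0.75, as in the study. All p values of single probes are from limma. Precision is limited by the few arrays per group and by how far a signal stands over background, and p values measure the spread between the arrays of a group.

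The members, gene lists and alternatives were chosen with earlier results of these data known, and RGS1 for its response in CEM PA. Named are all member probes, from each list up to 3 genes per comparison and direction with the largest change among those that met the fold limit and an adjusted p under 0.05, and the 5 genes most correlated with RGS1. Not all of these are printed, some results are not reported here, and the genes named only for a range or as a further probe were chosen after their values were seen. Where a gene of a list had several kept probes the brightest was used. Gene names and hg19 positions are those of the array design, and whether a probe lies in an exon or UTR was not determined. The main model did not pair arrays. In the replicate block mock and FK866 arrays of equal number were paired, since their deviations from the group means correlated across probes. The correlations were 0.46 and 0.353 (CEM PA) and 0.2, 0.389, 0.474 and 0.289 (CEM RES). In CEM PA such arrays also shared a scan session, and the deviations of the 2 FK866-treated arrays mirror each other, so these are not separate checks. Alternatives were other scaling, background, filter, outlier, probe and variance settings, blocks by slide, session or replicate number, and each array left out. Promoters were read from RefSeq tables with Python 3.11.15 (pandas 2.3.3), and plots made with matplotlib 3.10.9. The fit was tested on simulated data.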

Additional observations from a re-analysis of the deposited data

Results flagged for a closer look

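The response of RGS1 to FK866 differed between CEM RES and CEM PA by -3.076 on the log2 scale, with every FK866-treated CEM PA array above all CEM PA mock arrays and no such rise in CEM RES. It is listed because the effects of the same dose and time differed between both lines, although CEM RES was not naive to FK866. Since RGS1 was chosen for its rise in CEM PA, this is a description. In the 22 groups of 4 arrays formed by the 11 probes, 0 arrays stood far from the others of their group, where chance flags about 1 in 20.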

How the results depend on the processing

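Over the alternatives 1213 fold changes of member probes kept their direction and their side of the threshold, 34 changed sign, 6 lost the double threshold and 7 gained it. The rise of RGS1 in CEM PA ranged from 2.00 to 3.11 over 26 alternatives. The number of member probes past the double threshold in CEM PA ranged from 1 to 3 when single arrays were left out. With the replicate block, which pairs arrays of equal number, RGS1 alone passed in CEM PA and 0 member probes in CEM RES, and no call changed. In both of these CEM PA counts RGS1 is a description, since it was chosen for its rise. With that block RGS1 was 2.89 and RGS2 0.48 (limma p 0.0157, adjusted p 0.115) in CEM PA. RGS3 probe 1 was -0.535 (limma p 0.00555, adjusted p 0.0699) and RGS14 -0.441 (limma p 0.0163, adjusted p 0.117), and 5385 of all tested probes had a p under 0.05. Where a value near zero turned its sign the cause was not tested. In CEM PA, RGS16 probe 1 was -0.0176 with 75th-percentile scaling and -0.399 with slide as a block, and probe 2 was 0.00474 with the replicate block and 0.105 with array quality weights. In CEM RES, RGS12 probe 2 was -0.0324 with 75th-percentile scaling and -0.0598 with weights. For the difference of the responses, RGS16 probe 1 was 0.315 with slide as a block. RGS16 probe 2 was 0.328 with slide and 0.0183 with scan session as a block, 0.00768 with outlier spots kept and 0.00417 in the deposited log2 table. RGS12 probe 2 was -0.00355 with weights. Leaving out single arrays turned further values. In CEM PA the ranges were -0.254 to 0.2 and -0.427 to 0.00474 for the RGS16 probes, and -0.0539 to 0.204 and -0.257 to 0.0404 for the RGS12 probes. In CEM RES they were -0.0298 to 0.259 for RGS2, -0.2 to 0.134 for RGS16 probe 1 and -0.0463 to 0.0832 for RGS12 probe 2. Between the lines under FK866 the range was -0.104 to 0.0141 for RGS19. For the difference of the responses they were -0.432 to 0.016 for RGS2, -0.284 to 0.17 and -0.159 to 0.273 for the RGS16 probes and -0.0265 to 0.271 for RGS12 probe 2. Between mock-treated lines RGS1 was past the fold limit in 4 of 25 alternatives, with values from -0.885 to -0.297, RGS16 probe 1 missed it with array weights (-0.68), and under FK866 RGS14 missed it with normexp correction (-0.75) and RGS12 probe 2 with scaling (-0.30) and normexp (-0.34).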
